A study of Mus musculus with 28 samples.

Results

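The kidneys of male C57BL/6 mice (written C57BL6J in the article), 8 weeks old, were compared by RNA sequencing. The mice were gavaged once daily for 7 days with nicotinamide mononucleotide (NMN) at 1340 mg/kg/d or with water. NMN is a precursor of the coenzyme NAD+. The comparison holds 8 of the 28 libraries of the series, 4 kidney libraries with NMN and 4 with water, which were chosen by the organ, schedule and treatment in the sample labels. The other libraries come from liver or from mice gavaged 2 times daily to a total of 2680 mg/kg/d, and of these only the 6 kidneys of the 2680 mg/kg/d schedule (3 with NMN, 3 with water) are used, in a comparison of the schedules near the end. The labels name no genetic change in either group and call the water mice control. They number the samples within a group but do not say that each came from its own animal, so the p-values measure the spread between samples, which the methods of the study describe as groups of mice.

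The kidney reabsorbs most of the filtered glucose, phosphate, bicarbonate and amino acids in the proximal tubule, and it fine-tunes sodium, calcium and acid output in the thick ascending limb, distal tubule and collecting duct. Proximal tubule cells also take up glutamine to make ammonium, make glucose from lactate and amino acids, and convert tryptophan to NAD+. NMN itself is turned into NAD+ by the Nmnat enzymes, and Nampt makes NMN from nicotinamide in the salvage pathway. Kidney transport follows the time of day, and many of its transporter genes are under the circadian clock.

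The segment markers of the kidney were abundant in the libraries. In TPM (transcripts scaled to a fixed total, a level per exon length, averaged over the 8 libraries), Slc34a1 of the proximal tubule was at 3491, Umod of the thick ascending limb at 2418, Aqp2 of the collecting duct principal cell at 545, Slc12a3 of the distal convoluted tubule at 243 and Podxl of the podocyte at 106. The adrenal steroid genes Cyp11b1, Cyp11b2 and Cyp21a1 had no count in any of the 8 libraries. Markers of fat were uneven. Adipoq, a gene of fat cells, had 18, 64, 38 and 142 counts in water replicates 1 to 4 and 7, 6, 139 and 4 counts in NMN replicates 1 to 4, so that water replicate 4 and NMN replicate 3 carried more of it than the others. In whole kidney RNA, fewer cells of a type cannot be told apart from less RNA per cell.

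Counted reads per library were 15696435, 15512713, 15354270 and 15649638 with water and 13973922, 13174264, 13655073 and 14006288 with NMN. Every NMN library was thus smaller than every water library, and thinning all libraries to 13174264 reads gave 19 genes past the threshold in place of 18, with all 18 among them. Mitochondrial genes held 9.10 to 10.6% of the reads with water and 8.92 to 10.5% with NMN. Correlations of log2 CPM (counts scaled to a fixed library total) ran from 0.977 to 0.985 among water libraries, from 0.973 to 0.980 among NMN libraries and from 0.972 to 0.982 between the groups. Correlations within and between groups thus overlapped. On the first principal component (21.6% of the variance) NMN replicates 1, 2 and 4 lay at 27.2, 25.5 and 14.3, above all water libraries (-27.7 to -1.97), and NMN replicate 3 lay among the latter at -14.3. The second (19.8%) set replicate 1 of both groups apart, at 27.2 with water and 32.4 with NMN against -23.0 to -2.17 for the other 6 libraries.

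Few genes passed the threshold between NMN and water in the main fit, and their number depended on the processing, as given below. With the quasi-likelihood test of edgeR, adjusted by Benjamini-Hochberg, 18 genes passed an adjusted p under 0.05, which was 0.12% of the 14972 genes tested. They were 10 genes that rose with NMN (0.0668%) and 8 that fell (0.0534%). The genes that rose included the kidney's glutamine and citrate carriers Slc38a3 and Slc13a2, the clock repressor Bhlhe40, asparagine synthetase Asns, and the secreted proteins Igfbp1, Rarres2 and Cp. Those that fell included the growth factor Mdk, the membrane carbonic anhydrase Car4 and the organic anion carrier Slc22a28. At an unadjusted p under 0.05 there were 650 genes higher (4.34%) and 688 lower (4.6%), together 8.94% of the genes tested. Without a threshold, 7525 genes were higher and 7447 lower with NMN, and the median over all genes tested was 0.0011 on the log2 scale.

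**Figure D1:**
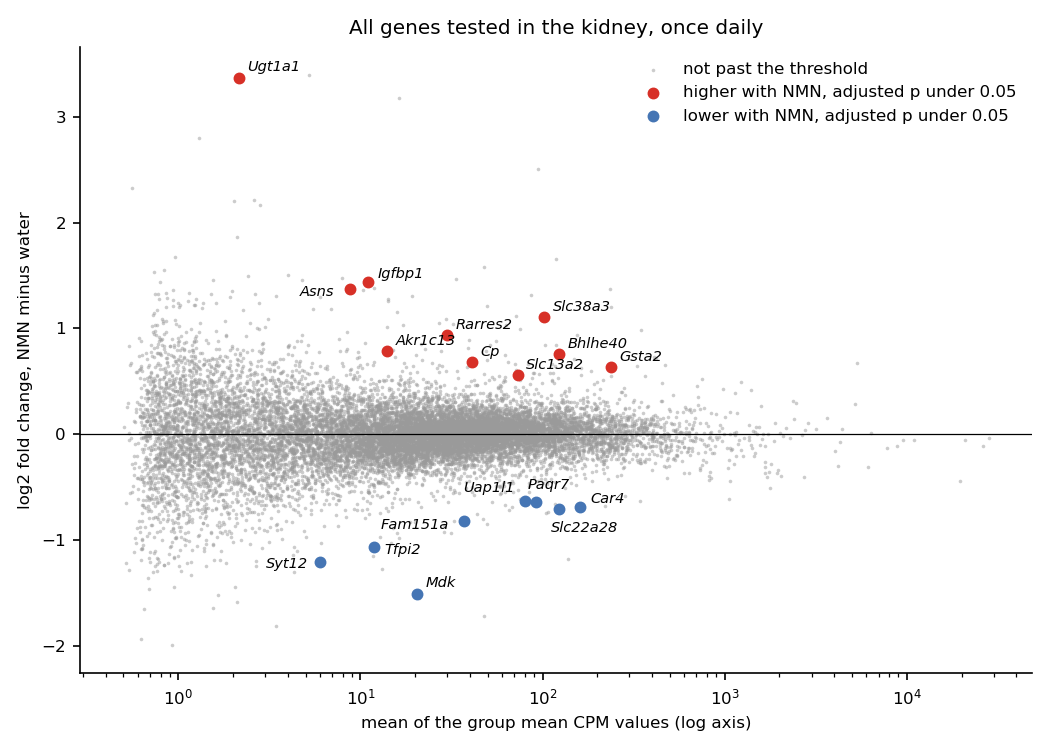
Log2 fold change (NMN minus water) against mean level (CPM, log axis) for each of the 14972 genes tested, with the 18 genes past the threshold in red (higher) and blue (lower). Of the 18, 17 lie between 6.04 and 239 CPM, and Ugt1a1 stands apart at 2.15 CPM with a log2 fold change of 3.37.

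All 18 were free of overlap between the 4 NMN and the 4 water libraries, which gives the smallest p that an exact permutation test of 4 against 4 allows (two-sided, p = 0.0286). The 18 were chosen in these same libraries, so this separation is no separate support. Over all genes tested, 343 (2.29%) did not overlap with NMN higher and 424 (2.83%) with NMN lower. Mdk, Slc38a3, Fam151a and Rarres2 passed the threshold with any single library left out, whereas each of the other 14 passed in 1 to 5 of these 8 fits. The number of genes called was 7 without water replicate 1, 5 without water replicate 4, 6 without NMN replicate 2, 67 without NMN replicate 3 and 42 without NMN replicate 4. In a fit of all 14 kidney libraries, which share 1 estimate of the spread, 17 genes passed for the once-daily schedule and 8 of the 18 were among them. These were Slc38a3, Fam151a, Paqr7, Uap1l1, Akr1c13, Tfpi2, Cp and Gsta2. Mdk had an adjusted p of 0.191 in that edgeR fit, Rarres2 of 0.154, Slc22a28 of 0.120, Bhlhe40 of 0.0908, Slc13a2 of 0.331, Igfbp1 of 0.195, Ugt1a1 of 0.174, Car4 of 0.0672, and Asns and Syt12 of 0.0532. DESeq2, the test the study used, called 159 genes, 78 higher and 81 lower, and all 18 were among them. The DESeq2 calls given below for single lists are to be read beside these counts over all genes.

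**Figure D2:**
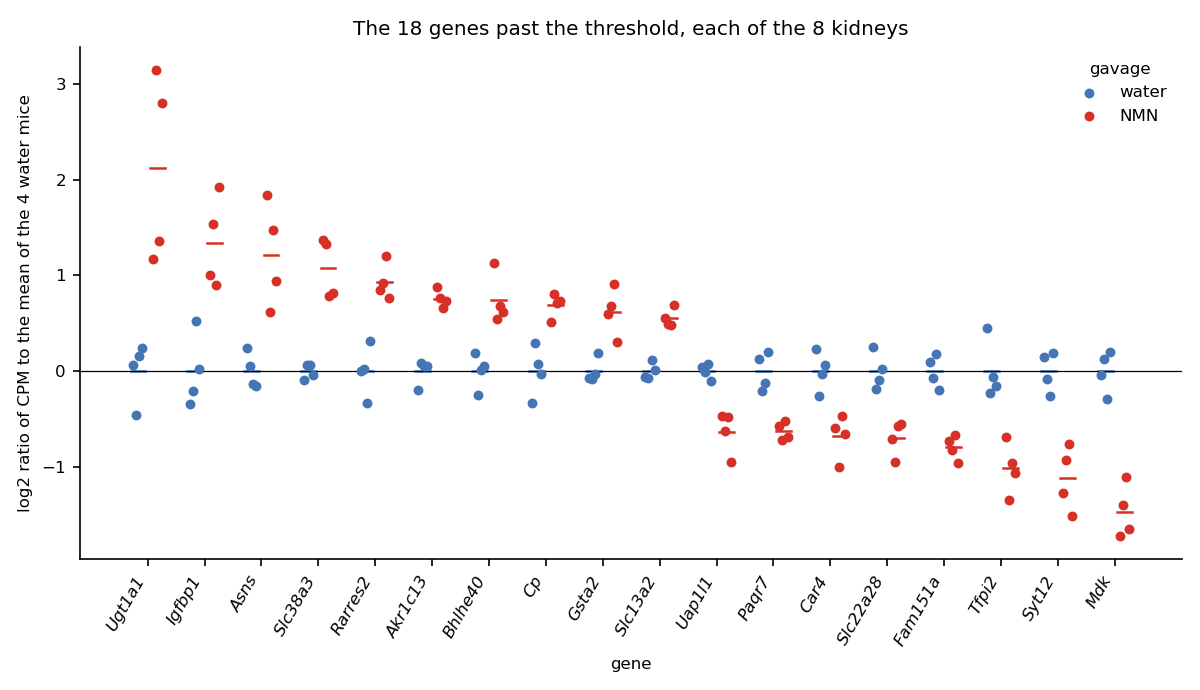
The 18 genes past the threshold in each of the 8 kidneys, as the log2 ratio of CPM to the mean of the 4 water libraries (blue points water, red points NMN, short lines group means). The points of the groups do not overlap for any gene, and the spread among the NMN libraries is widest for Ugt1a1.

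Among the transporters, Slc38a3 (ENSMUSG00000010064) rose. It encodes the basolateral carrier through which proximal tubule cells take up glutamine, the substrate of ammonium production. Its level was 61.0, 67.8, 68.0 and 63.2 CPM in the water libraries and 169, 163, 112 and 115 CPM in the NMN libraries. Every NMN library lay far above the water libraries, which were close to each other. The log2 fold change was 1.104 ± 0.13 (standard error, SE, adjusted p = 0.00163 in edgeR), and it was 1.09 without water replicate 1. Slc13a2, the apical carrier for citrate and other dicarboxylates, had 56.8, 56.2, 64.1 and 59.7 CPM with water and 87.3, 83.2, 82.8 and 95.5 CPM with NMN. The NMN libraries were again uniformly higher, with a log2 fold change of 0.56 ± 0.09 (SE, adjusted p = 0.0275 in edgeR). Its exons overlap the antisense gene Slc13a2os, and since counting ignored the strand, reads that lie within both count for neither.

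Car4 and Slc22a28 moved in the other direction. Car4, the membrane-bound carbonic anhydrase of the brush border that serves bicarbonate reabsorption, had 232, 164, 192 and 206 CPM with water and 130, 98.3, 142 and 124 CPM with NMN. The log2 fold change was -0.68 ± 0.12 (SE, adjusted p = 0.0393 in edgeR). Slc22a28, a mouse member of the organic anion transporter family whose reads are hard to assign among its paralogs, averaged 154 ± 20.4 CPM with water (SD, n = 4) and 94.3 ± 11.5 CPM with NMN (SD, n = 4), a log2 fold change of -0.70 ± 0.11 (SE, adjusted p = 0.0269 in edgeR). For both genes water replicate 1 was the highest library. Without it the log2 fold changes were -0.59 and -0.60, with adjusted p of 0.103 and 0.0644 in edgeR.

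The list of acid-base handling and ammoniagenesis held both directions. Of its 28 tested members 19 were higher and 9 lower, with a median log2 fold change of 0.07. Slc38a3 and Car4 passed the threshold in edgeR, beside 0.12% of all genes tested, and DESeq2 called 3 members higher and 1 lower. At an unadjusted p under 0.05 there were 5 higher and 3 lower, beside 4.34% and 4.6% of all genes tested. The groups did not overlap for 3 members with NMN higher and 1 with NMN lower, beside 2.29% and 2.83%. Pck1, the cytosolic enzyme that starts gluconeogenesis and consumes the carbon skeleton of glutamine, had 5319, 3673, 3342 and 4016 CPM with water and 7119, 6421, 5311 and 7175 CPM with NMN. The groups overlapped because water replicate 1 lay just above NMN replicate 3, and the log2 fold change of 0.67 (standard error 0.14) had an adjusted p of 0.0852 in edgeR. Without water replicate 1 it was 0.84, with an adjusted p of 0.0132.

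In the list of glucose and phosphate transport, 12 of 21 members were higher and 9 lower (median 0.02). Slc13a2 was the member that passed in edgeR, where 0.0668% of all genes tested passed with NMN higher. At an unadjusted p under 0.05 there were 3 higher and 5 lower, beside 4.34% and 4.6% of all genes tested. Besides Slc13a2, 4 members did not overlap, all with NMN lower (Slc5a2, Slc34a3, Slc34a1 and Slc13a1), beside 2.83% of all genes tested, and DESeq2 called Slc5a2 and Slc34a3 lower (adjusted p = 0.00181 and 0.00238). Slc5a2, the main apical glucose carrier of the early proximal tubule, was at 425, 417, 467 and 355 CPM with water and at 296, 261, 318 and 199 CPM with NMN, a log2 fold change of -0.63 ± 0.13 (SE, adjusted p = 0.0852 in edgeR). The groups did not overlap, although the gene shares exons with BC017158. Slc34a3, a phosphate carrier of the same membrane, was at 60.05 ± 5.01 CPM with water and 34.5 ± 10.3 CPM with NMN (SD, n = 4 each), with a log2 fold change of -0.80 ± 0.18 (SE, adjusted p = 0.115 in edgeR). Slc34a1, the most abundant marker of the proximal tubule, had a log2 fold change of -0.31 ± 0.10 (SE, adjusted p = 0.304 in edgeR). Markers of the S1 and S2 segments of the proximal tubule, 5 of which are also in this list, had 3 of 8 higher and 5 lower (median -0.14), with 1 higher and 3 lower at an unadjusted p under 0.05. Of these 8, Slc5a2 and Slc34a1 did not overlap, and the median ran from -0.25 without water replicate 4 to 0.000639 without water replicate 3. The part of the share of these segments in the tissue was not tested. In the list of organic ion transport 9 of 23 members were higher and 14 lower (median -0.06), with 3 higher and 5 lower at an unadjusted p under 0.05. There Slc22a28 passed in edgeR, lower, and DESeq2 called 1 higher and 2 lower. In that of amino acid and peptide transport 7 of 20 were higher and 13 lower (median -0.08), with 3 higher and 4 lower at an unadjusted p under 0.05. There Slc38a3 passed in edgeR, higher, and DESeq2 called 1 higher and 1 lower. Over all genes tested, 0.12% passed in edgeR, and 4.34% were higher and 4.6% lower at an unadjusted p under 0.05.

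Distal sodium transport leaned in 1 direction without any member past the threshold in edgeR, although 10 higher and 1 lower member had an unadjusted p under 0.05, beside 4.34% and 4.6% of all genes tested, and DESeq2 called 2. Of 30 tested genes for sodium carriers, channels and their regulators, 26 were higher and 4 lower, with a median log2 fold change of 0.18, and 6 did not overlap with NMN higher while 1 did not overlap with NMN lower, beside 2.29% and 2.83% of all genes tested. The median stayed between 0.16 and 0.20 with each library left out. Summed over the list, the level was 18809, 17638, 17524 and 17265 CPM with water and 21273, 20607, 19645 and 20329 CPM with NMN, so that the groups did not overlap. Abundant members weigh most in such a sum. The highest in TPM was Klk1, at 5032, and the list also holds Umod. No sum without these genes was taken. Slc12a1, the sodium-potassium-chloride carrier of the thick ascending limb and target of loop diuretics, was at 695, 916, 872 and 845 CPM with water and at 1036, 1172, 1031 and 1243 CPM with NMN (log2 fold change 0.43, standard error 0.10, adjusted p = 0.117 from edgeR). Atp1b1, the beta subunit of the sodium pump, had a log2 fold change of 0.31 ± 0.09 (SE, adjusted p = 0.237 in edgeR) and Wnk1, a kinase that controls the distal sodium-chloride carrier, of 0.31 (SE 0.10, adjusted p = 0.294 in edgeR).

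Markers of the thick ascending limb were compared beside these genes, and 3 of the 7 (Kcnj1, Slc12a1 and Umod) are also in the sodium list. Summed over the 7 markers they were at 3670, 3834, 3532 and 3189 CPM with water and at 4305, 4535, 4118 and 4567 CPM with NMN, and 6 of the 7 were higher with NMN (median log2 fold change 0.27). Umod, their most abundant gene, was at 2221 ± 255 CPM with water and 2731 ± 122 CPM with NMN (SD, n = 4 each). None of the 7 passed in edgeR, whereas DESeq2 called Slc12a1 higher (adjusted p = 0.00945). Slc12a1 and Umod had an unadjusted p under 0.05 and did not overlap, both with NMN higher, beside 4.34% and 2.29% of all genes tested. Without Umod and Slc12a1, left out after their values were seen, the group means of the other 5 summed to 504 CPM with water and 529 CPM with NMN. The part of the segment's share of the tissue in the sodium transport values was not tested. Of the 7 markers of the distal convoluted tubule, 3 (Klhl3, Wnk1 and Slc12a3) are also in the sodium list, and 6 were higher with NMN (median 0.26). Of the 7, 3 had an unadjusted p under 0.05, all higher, and Wnk1 did not overlap, beside 4.34% and 2.29% of all genes tested. None passed in edgeR or DESeq2. Their median was 0.14 without NMN replicate 1, and the part of this segment was not tested either. In the list of calcium and magnesium transport 17 of 25 members were higher and 8 lower (median 0.10). At an unadjusted p under 0.05 there were 6, all higher, beside 4.34% of all genes tested. For 3 members the groups did not overlap, with NMN higher, beside 2.29%. None passed in edgeR, and DESeq2 called 2, both higher. Trpv5, the apical calcium channel of the distal tubule, had a log2 fold change of 0.55 ± 0.14 (SE, adjusted p = 0.132 in edgeR), and Egf, which the distal tubule secretes, of 0.42 (SE 0.10, adjusted p = 0.111 in edgeR).

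**Figure D3:**
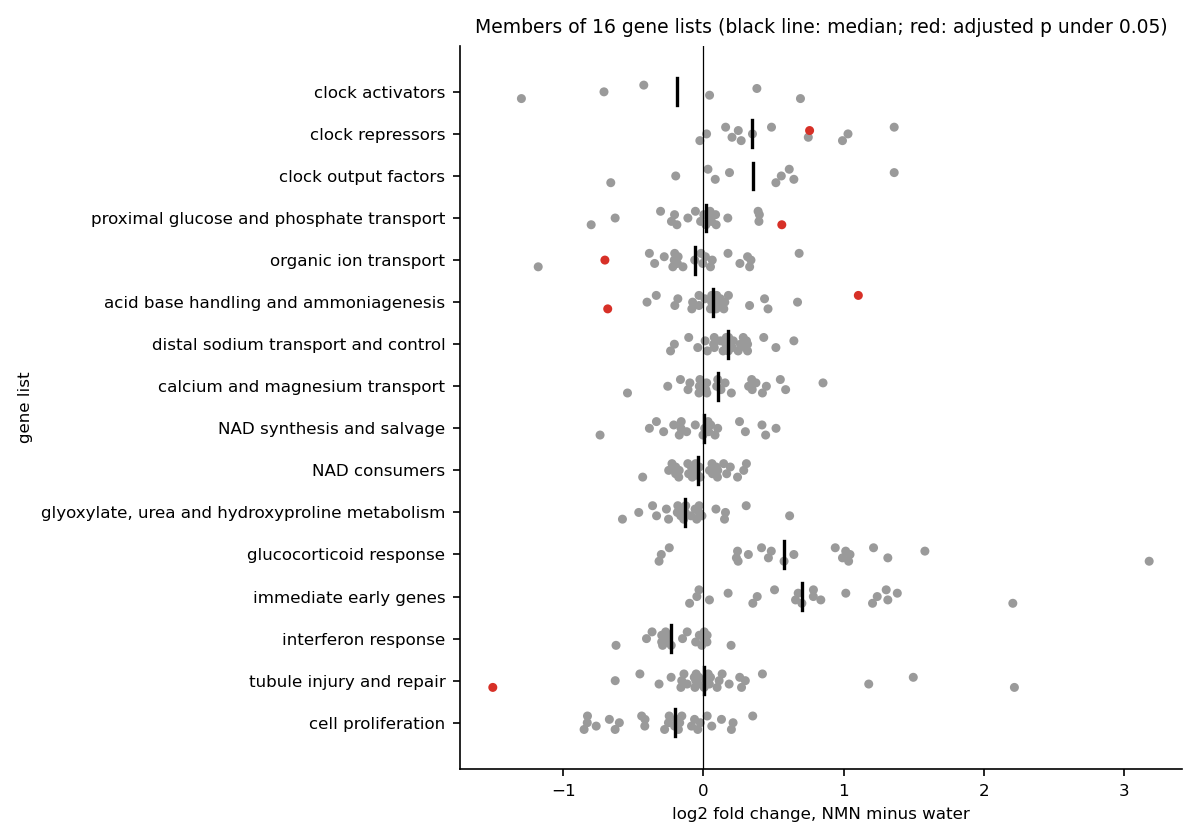
Log2 fold change (NMN minus water) of each tested member of 16 gene lists, with the median of each list as a black line and members past the threshold in red. The medians of the clock repressors, the distal sodium genes, the glucocorticoid response and the immediate early genes lie to the right of 0, while most members of every list are grey.

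Clock genes make up the next group. The transcription factors Arntl, Clock and Npas2 activate genes through E-boxes, the repressors Per, Cry and Bhlhe40 and Bhlhe41 close the loop, and Nr1d1 and Nr1d2 repress Arntl in turn, so that Arntl and Npas2 peak at the opposite time of day from Nr1d1, Dbp and Tef. Of 13 tested clock repressors 12 were higher with NMN (median log2 fold change 0.35), 1 passed the threshold and 4 did not overlap with NMN higher, beside 0.0668% and 2.29% of all genes tested. Of 10 clock output factors 8 were higher (median 0.35) and of 6 activators 3 (median -0.19). None of these 16 passed in edgeR, 4 had an unadjusted p under 0.05, all higher, beside 4.34% of all genes tested, and DESeq2 called 1 of them, Rora. Ciart, listed also under its older name Gm129, counts in both of the first lists.

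Bhlhe40 was the clock gene that rose. It had 104, 76.5, 92.1 and 94.8 CPM with water and 200, 134, 147 and 140 CPM with NMN, a log2 fold change of 0.76 ± 0.13 (SE, adjusted p = 0.0393 in edgeR). NMN replicate 1 was the highest, and the call held without water replicate 1 (0.83, adjusted p = 0.0451). It held in 5 of the fits with a library left out and was lost in the others. Over these fits the log2 fold change ran from 0.61 to 0.83, with an adjusted p of up to 0.1015 in edgeR. The noncoding gene 0610040F04Rik overlaps its exons, and reads that lie within both count for neither. Nr1d1, which overlaps Thra, was at 30.5, 46.1, 29.6 and 59.4 CPM with water and at 68.0, 81.1, 119 and 70.05 CPM with NMN. The groups did not overlap, but the log2 fold change of 1.03 (standard error 0.28) had an adjusted p of 0.319 in edgeR.

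Water replicate 1 stood apart in the clock. Arntl was at 31.5 CPM in it and at 5.59 to 6.97 CPM in the other 3 water libraries, and NMN libraries had 5.47 to 9.20 CPM. Npas2 was at 16.1 CPM against 2.18 to 3.21 CPM, and Dbp at 7.15 CPM against 59.6 to 85.0 CPM. Genes of both phases were thus displaced in opposite directions in that kidney, with Arntl and Npas2 high and Dbp, Per3 (13.1 CPM against 41.4 to 56.6 CPM), Nr1d2 (41.0 CPM against 106 to 127 CPM) and Tef low. The labels give no hour of sampling. Without this kidney, the median of the clock repressors was 0.25 with 12 of 13 higher, that of the output factors 0.20 with 8 of 10 higher, and that of the activators turned to 0.22.

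**Figure D4:**
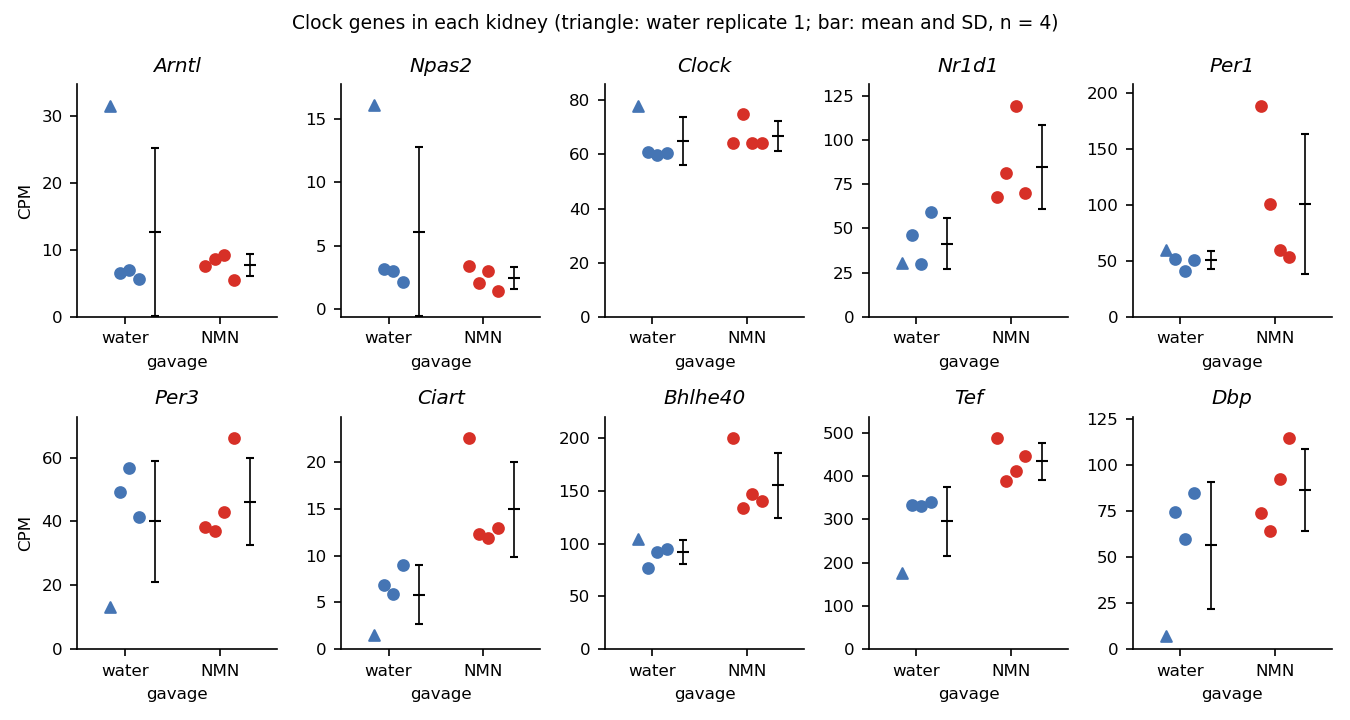
CPM of 10 clock genes in each kidney (triangle water replicate 1, circles the other libraries, black bar mean and SD, n = 4). In water replicate 1 Arntl and Npas2 are high and Per3, Tef and Dbp low, while Bhlhe40, Nr1d1, Ciart and Tef show no overlap between the groups.

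Tef and Ciart also did not overlap between the groups. Tef, an output factor of the clock that binds D-boxes, had 176, 335, 332 and 340 CPM with water and 489, 389, 411 and 448 CPM with NMN. Its log2 fold change was 0.55 ± 0.19 (SE, adjusted p = 0.412 in edgeR) and 0.38 without that library (adjusted p = 0.196). Ciart, a repressor of Arntl and Clock, had 1.47, 6.86, 5.93 and 8.99 CPM with water and 22.6, 12.4, 11.9 and 12.98 CPM with NMN. Its log2 fold change was 1.36 ± 0.46 (SE, adjusted p = 0.436 in edgeR). Per1 was at 59.9, 51.5, 40.6 and 50.5 CPM with water and at 189, 101, 59.5 and 53.5 CPM with NMN, where 2 of the NMN libraries lay within the water range. Usp2 and Bhlhe41 had log2 fold changes of 0.52 and 0.75, Cry2 and Per2 of 0.27 and 0.25, and Clock and Cry1 of 0.04 and -0.03, all with adjusted p of 0.397 or more in edgeR.

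The promoters of 3 of these clock genes are shown because they carry the letters of clock elements. The stretches end at the base before the transcription start in RefSeq (build GRCm38.p6) and are written 5′ to 3′ on the strand of the gene, with E-boxes (CACGTG) and D-boxes (TTATGTAA or TTATGCAA) in capitals. Ciart lies at chr3:95882229-95882368 (minus strand), Tef at chr15:81802533-81802672 (plus strand) and Per1 at chr11:69098769-69098948 (plus strand).
Ciart: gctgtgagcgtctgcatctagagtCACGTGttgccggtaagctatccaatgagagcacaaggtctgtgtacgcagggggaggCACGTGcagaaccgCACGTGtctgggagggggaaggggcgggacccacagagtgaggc
Tef: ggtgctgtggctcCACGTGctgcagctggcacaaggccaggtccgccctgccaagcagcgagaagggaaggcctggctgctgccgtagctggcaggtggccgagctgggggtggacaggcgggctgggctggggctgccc
Per1: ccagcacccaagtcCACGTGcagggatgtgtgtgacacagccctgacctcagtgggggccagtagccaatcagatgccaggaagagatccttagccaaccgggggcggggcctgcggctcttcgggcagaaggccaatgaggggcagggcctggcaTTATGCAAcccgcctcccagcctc

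Ciart holds 3 E-boxes in this stretch, the nearest of which ends 39 bases before the start, and Per1 holds an E-box and a D-box. Of the 28 genes in the clock lists 22 had a RefSeq window of 250 bases before to 50 after the start, and 6 of these (27.3%) held an E-box on either strand, against 11.5% of the 11137 tested genes with a window. Of the 18 genes past the threshold 12 had a window. None of the 12 held an E-box or a ROR element, and 1, Paqr7, held a D-box, which 1.47% of the tested genes with a window hold. A match of letters is a description of the window and not a site at which a factor was measured.

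Asns and Igfbp1 rose. Asns makes asparagine and is a known target of the amino acid response through Atf4. It had 5.82, 5.04, 4.37 and 4.30 CPM with water and 18.7, 7.69, 14.3 and 9.76 CPM with NMN, a log2 fold change of 1.37 ± 0.25 (SE, adjusted p = 0.0393 in edgeR). The lowest NMN library was above the highest water library, and the NMN libraries differed widely among themselves. Its promoter at chr6:7693210-7693289 (minus strand, GRCm38.p6) is shown up to the base before the start, with a match to TGATGNAA, the letters of the amino acid response element, in capitals.
Asns: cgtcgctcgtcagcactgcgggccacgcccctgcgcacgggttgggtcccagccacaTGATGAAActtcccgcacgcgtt

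This motif was looked for after the values of Asns had been seen, and 2.74% of the tested genes with a window hold it on either strand. Asns was the 1 gene with it among the 12. In the list of heat shock and endoplasmic reticulum stress, the genes other than Asns counted 10 higher and 18 lower (median -0.17). With Asns the median of the 29 was -0.16, and it was 0.11 without water replicate 1. Chac1, another Atf4 target, was at 1.27, 0.252, 0.912 and 1.22 CPM with water and at 1.21, 6.44, 28.7 and 2.04 CPM with NMN, where NMN replicate 3 set the mean. Atf5 was at 15.1 ± 1.64 CPM with water and 25.3 ± 5.97 CPM with NMN (SD, n = 4 each; log2 fold change 0.75, adjusted p = 0.0866 from edgeR).

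Igfbp1, a secreted binding protein of insulin-like growth factors that insulin represses through FoxO factors in liver, had 4.41, 4.91, 8.47 and 5.84 CPM with water and 12, 17.6, 11.1 and 23.2 CPM with NMN. The log2 fold change was 1.44 ± 0.26 (SE, adjusted p = 0.0479 in edgeR). In the list of insulin and FoxO signalling 20 of 25 members were higher and 5 lower (median 0.24). Igfbp1 was the member that passed in edgeR, where 0.0668% of all genes tested passed with NMN higher. At an unadjusted p under 0.05 there were 5 members, all higher, beside 4.34% of all genes tested. Foxo3 was at 84.6 ± 9.54 CPM with water and 152 ± 54.7 CPM with NMN (SD, n = 4 each), with NMN replicate 4 inside the water range at 86.3 CPM.

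Genes of the glucocorticoid response were mostly higher without passing the threshold in edgeR. An unadjusted p under 0.05 was found for 4 higher and 2 lower members, beside 4.34% and 4.6% of all genes tested, and DESeq2 called 2. Of 21 tested members 18 were higher and 3 lower (median log2 fold change 0.57), and 2 did not overlap with NMN higher while 1, the receptor gene Nr3c1, did not overlap with NMN lower, beside 2.29% and 2.83% of all genes tested. Fkbp5, a chaperone induced by the glucocorticoid receptor, was at 126, 112, 75.5 and 111 CPM with water and at 219, 256, 176 and 162 CPM with NMN, a log2 fold change of 0.94 ± 0.17 (SE, adjusted p = 0.0829 in edgeR). All NMN libraries were above all water libraries. Zbtb16, another induced gene, was at 1.00, 2.01, 4.11 and 5.78 CPM with water and at 11.7, 57.3, 40.9 and 7.23 CPM with NMN (log2 fold change 3.18, standard error 0.88, adjusted p = 0.385 from edgeR). Of 21 immediate early genes 18 were higher (median 0.70), 6 of them at an unadjusted p under 0.05 (beside 4.34% of all genes tested), 2 called by DESeq2 and none by edgeR. Fosl2 was at 19.1 ± 0.25 CPM with water and 30.6 ± 5.80 CPM with NMN (SD, n = 4 each; log2 fold change 0.68, adjusted p = 0.0622 from edgeR). These medians depend on NMN replicate 1. Without it they were 0.37 for the glucocorticoid list and 0.20 for the immediate early genes.

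The genes of NAD+ metabolism were divided in direction. Of 22 tested genes of NAD+ synthesis and salvage 11 were higher and 11 lower, with a median log2 fold change of 0.00266. None passed the threshold in edgeR. At an unadjusted p under 0.05 there were 4 lower and 1 higher, beside 4.6% and 4.34% of all genes tested, and DESeq2 called 2 lower and 1 higher. The groups did not overlap for 5 members with NMN lower (Qprt, Acmsd, Afmid, Nmnat3 and Kmo) and for 1 with NMN higher (Nampt), beside 2.83% and 2.29% of all genes tested. Nampt was at 131, 156, 165 and 150 CPM with water and at 211, 210, 173 and 209 CPM with NMN, so that all NMN libraries were higher (log2 fold change 0.42, standard error 0.10, adjusted p = 0.113 from edgeR). The NMN libraries agreed closely except for NMN replicate 3, which came near the water range. Qprt, the enzyme through which quinolinate from tryptophan enters NAD+ synthesis, was at 89.6, 80.6, 85.6 and 85.9 CPM with water and at 62.3, 61.1, 70.6 and 67.5 CPM with NMN. It was lower in all NMN libraries (log2 fold change -0.39, standard error 0.09, adjusted p = 0.107 from edgeR). Acmsd, which diverts the pathway away from quinolinate, was at 131 ± 32.3 CPM with water and 78.4 ± 17.4 CPM with NMN (SD, n = 4 each), with an adjusted p of 0.275 in edgeR.

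The enzymes that act on NMN and its nucleoside showed smaller differences. Nmnat1, the nuclear enzyme that joins NMN to ATP, was at 21.8 ± 1.84 CPM with water and 22.4 ± 3.14 CPM with NMN (SD, n = 4 each), and Nmrk1, the nicotinamide riboside kinase, at 87.7 ± 19.8 and 77.9 ± 12.9 CPM. Nmnat3, the mitochondrial form, was lower in all NMN libraries at 15.04 ± 2.13 against 19.0 ± 1.16 CPM (log2 fold change -0.34, standard error 0.14, adjusted p = 0.484 from edgeR). Slc12a8, which has been described as an NMN carrier in the gut, had 2 to 7 counts with water and 4 to 13 counts with NMN and was left out of the test for its low counts. Nnmt, which methylates nicotinamide, was near 1 CPM in both groups. Among the enzymes that consume NAD+, 12 of 28 were higher and 16 lower (median -0.04), and none was free of overlap. None passed in edgeR or DESeq2, and 0 had an unadjusted p under 0.05. Sirt1, Parp1 and Cd38 had log2 fold changes of -0.09, -0.06 and -0.05, with standard errors of 0.14, 0.10 and 0.22.

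Among secreted proteins, Mdk, a heparin-binding growth factor, fell. It had 29.2, 32.8, 24.3 and 34.6 CPM with water and 8.75, 11.02, 13.7 and 9.20 CPM with NMN. The groups were well apart, with a log2 fold change of -1.502 ± 0.16 (SE, adjusted p = 0.000566 in edgeR), the smallest adjusted p in the comparison, and 0.191 in the fit of all 14 kidney libraries. Tfpi2, a Kunitz-type protease inhibitor, fell from 16.1 ± 3.82 to 7.70 ± 1.55 CPM (SD, n = 4 each; log2 fold change -1.07, adjusted p = 0.0393 from edgeR), and without water replicate 1 its log2 fold change was -0.88 with an adjusted p of 0.115.

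Rarres2, the precursor of the adipokine chemerin, and Cp, the copper-carrying ferroxidase ceruloplasmin, rose. Rarres2 had 20.3, 20.6, 15.96 and 25.3 CPM with water and 36.7, 38.8, 47.3 and 34.8 CPM with NMN, a log2 fold change of 0.94 ± 0.14 (SE, adjusted p = 0.0131 in edgeR). Its highest library in each group, water replicate 4 and NMN replicate 3, is the one with the most Adipoq. The gene still passed with either of these libraries left out, but each such fit keeps the other one. The part of fat in its values was not tested. Rarres2 shares exons with Lrrc61. Cp, whose exons overlap Hps3, rose from 31.6 ± 5.64 to 50.7 ± 4.31 CPM (SD, n = 4 each; log2 fold change 0.68, adjusted p = 0.0393 from edgeR).

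The detoxification genes Gsta2, Akr1c13 and Ugt1a1 rose, and each has near-identical relatives, so that the assignment of its reads is uncertain. Gsta2, a glutathione transferase and target of Nrf2, had 177, 176, 183 and 213 CPM with water and 282, 299, 352 and 230 CPM with NMN (log2 fold change 0.64, standard error 0.12, adjusted p = 0.0393 from edgeR). The groups did not overlap, and NMN replicate 4 came closest to the water libraries. Of the 30 Nrf2 targets and glutathione genes other than Gsta2, 17 were higher and 13 lower (median 0.02), with Nqo1, a quinone reductase, at 62.9 ± 10.8 CPM with water and 84.1 ± 11.6 CPM with NMN (SD, n = 4 each; adjusted p = 0.254 from edgeR). Akr1c13, an aldo-keto reductase, rose from 10.3 ± 0.932 to 17.8 ± 1.19 CPM (SD, n = 4 each; log2 fold change 0.78, adjusted p = 0.0393 from edgeR). Ugt1a1, the bilirubin glucuronosyltransferase, had 6, 2, 7 and 8 counts with water and 19, 96, 24 and 78 counts with NMN. Its log2 fold change of 3.37 ± 0.58 (SE, adjusted p = 0.0393 in edgeR) rests on these few reads, and its exons are shared with Ugt1a5 and Ugt1a8.

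The other 4 genes that fell have less defined roles in the kidney. Fam151a, whose exons overlap Acot11, had 50.3, 44.6, 53.1 and 41.0 CPM with water and 28.1, 26.3, 29.3 and 23.9 CPM with NMN, a log2 fold change of -0.81 ± 0.11 (SE, adjusted p = 0.00702 in edgeR). Paqr7, a membrane progestin receptor, fell from 112 ± 15.1 to 71.8 ± 4.70 CPM (SD, n = 4 each; adjusted p = 0.0275 from edgeR) and Uap1l1, a relative of the enzyme that makes UDP-N-acetylglucosamine, from 97.5 ± 5.24 to 63.2 ± 9.41 CPM (SD, n = 4 each; adjusted p = 0.0393 from edgeR). Syt12, a synaptotagmin that overlaps A930001C03Rik, fell from 8.42 ± 1.27 to 3.65 ± 0.949 CPM (SD, n = 4 each; adjusted p = 0.0479 from edgeR).

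Of 24 genes of glyoxylate, urea and hydroxyproline metabolism 19 were lower and 5 higher (median log2 fold change -0.13), and the summed level was 6689, 6242, 6601 and 6370 CPM with water against 6075, 5250, 5777 and 5242 CPM with NMN, without overlap. None passed in edgeR and DESeq2 called 1, lower. At an unadjusted p under 0.05 there were 2 higher and 6 lower, beside 4.34% and 4.6% of all genes tested, and 4 did not overlap with NMN lower, beside 2.83%. Agxt2, an aminotransferase that handles glyoxylate and methylarginines, was at 167 ± 7.52 CPM with water and 121 ± 16.9 CPM with NMN (SD, n = 4 each; log2 fold change -0.46, adjusted p = 0.0886 from edgeR). Miox, the kidney enzyme that breaks down inositol, was at 2238, 1997, 1981 and 2094 CPM with water and at 1375, 1216, 1876 and 1391 CPM with NMN, where NMN replicate 3 lay nearest to the water libraries (adjusted p = 0.108 from edgeR). Slc5a3, the inositol carrier of the osmolyte response, which overlaps Mrps6, had a log2 fold change of 0.56 ± 0.12 (SE, adjusted p = 0.0945 in edgeR). Fatty acid oxidation had 30 of 40 members higher (median 0.10), and none was free of overlap. None passed in edgeR and DESeq2 called 1. At an unadjusted p under 0.05 there were 4 higher and 1 lower, beside 4.34% and 4.6% of all genes tested.

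Androgen-dependent kidney genes were led by Cyp4a12a, an omega-hydroxylase of fatty acids that is typical of males. It was at 110, 49.3, 71.6 and 60.4 CPM with water and at 19.5, 13.7, 22.8 and 32.8 CPM with NMN, with no overlap (log2 fold change -1.71, standard error 0.35, adjusted p = 0.177 from edgeR). Its near-identical copy Cyp4a12b differed by -0.58 on the log2 scale (SE 0.19), and the assignment of reads between the copies is uncertain. Of the 19 tested genes of this list 12 were lower (median -0.26), and the median was -0.02 without water replicate 1. In edgeR none passed with the robust option, and Cyp4a12a passed without it (adjusted p = 0.0330). At an unadjusted p under 0.05 there were 7 members, all lower, beside 4.6% of all genes tested, and DESeq2 called 2.

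Mdk counts among the genes of tubule injury and repair. It was the member past the threshold in edgeR, where 0.0534% of all genes tested passed with NMN lower. DESeq2 called 1 member higher and 1 lower. Of the 31 tested genes of that list 16 were higher and 15 lower (median 0.00471), and at an unadjusted p under 0.05 there were 4 higher and 1 lower, beside 4.34% and 4.6% of all genes tested. Their summed level was 6694, 6935, 6376 and 6154 CPM with water and 7379, 7339, 7212 and 7154 CPM with NMN, without overlap. The sum holds the abundant Umod and Egf, products of the healthy distal nephron. Without these genes, left out after their values were seen, the group means summed to 3116 CPM with water and 2932 CPM with NMN. Havcr1, the injury marker known as Kim-1, was at 1.07, 1.196, 1.63 and 1.16 CPM with water and at 9.20, 1.33, 1.498 and 2.32 CPM with NMN, so that NMN replicate 1 was high and the other 3 lay in or near the water range. Lcn2, a marker of distal tubule injury, was at 3.96 ± 0.831 CPM with water and 3.19 ± 1.12 CPM with NMN (SD, n = 4 each). Of 21 interferon response genes 16 were lower (median -0.23), and of 28 genes of cell proliferation 22 were lower (median -0.20), although the 2 members without overlap, Tyms and Pcna, had NMN higher (2.29% of all genes tested). None of either list passed in edgeR or DESeq2, and 1 of each had an unadjusted p under 0.05, both lower, beside 4.6% of all genes tested. Mki67, a marker of dividing cells, was at 5.85 ± 1.78 CPM with water and 3.45 ± 2.21 CPM with NMN (SD, n = 4 each).

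Markers of other cell types were compared in the same way. The 7 podocyte markers were all higher (median 0.33), as were the 8 endothelial markers (median 0.22), yet their summed levels overlapped between the groups. The podocyte median was 0.19 without NMN replicate 3, and the endothelial median ran from 0.12 without water replicate 3 to 0.36 without NMN replicate 1. Macrophage markers had a median of -0.06, which ran from -0.21 without NMN replicate 2 to -0.01 without water replicate 1. All 6 tested adipocyte markers were lower (median -0.46), and the median ran from -3.33 without NMN replicate 3 to 0.11 without water replicate 4, the libraries richest in Adipoq. Red cell markers had a median of 0.75 with Hbb-bs between 7.23 and 144 CPM across the 8 libraries, and the median was 0.17 without NMN replicate 3 and 1.28 without water replicate 1. No marker of these types passed the threshold in edgeR or DESeq2. An unadjusted p under 0.05 was found for 1 podocyte and 1 endothelial marker, both higher, beside 4.34% of all genes tested. Only 1 of the 8 lymphocyte and neutrophil markers had enough counts to be tested.

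The 2680 mg/kg/d schedule, with its own water mice, allowed a test of whether a gene responded differently. Its kidneys differ from those of the 1340 mg/kg/d schedule beyond dose and interval, with 19.8 to 21.6% of the reads on mitochondrial genes in the water libraries. Of 15989 genes tested in a fit of all 14 kidney libraries, 1 gene (0.00625%) differed in its NMN effect between the schedules, and 35 (0.219%) passed the threshold at 2680 mg/kg/d. That gene was Hao2, a peroxisomal hydroxy acid oxidase of the kidney. Scaled over the 14 libraries, Hao2 was at 243, 328, 302 and 296 CPM with water and 194, 282, 301 and 280 CPM with NMN once daily, and at 297, 323 and 326 CPM with water and 141, 115 and 125 CPM with NMN at 2680 mg/kg/d. The log2 fold changes were -0.14 (standard error 0.13) and -1.31 (standard error 0.14), which differ by 1.17 (SE 0.18, adjusted p = 0.0415 in edgeR). With each of the 14 libraries left out in turn, Hao2 passed in 3 of the fits.

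Of the 18 genes called once daily, 17 had the same sign at 2680 mg/kg/d, where 57.6% of all genes tested kept their sign, and 4 passed the threshold there. The 4 were Slc38a3, Fam151a, Car4 and Gsta2. Slc38a3 was at 84.9, 73.8 and 67.0 CPM with water and 161, 211 and 293 CPM with NMN at 2680 mg/kg/d, a log2 fold change of 1.56 ± 0.20 (SE, adjusted p = 0.00298 in edgeR). Mdk was at 36.7, 36.7 and 37.1 CPM with water and at 22.7, 6.08 and 5.22 CPM with NMN there, which gave a log2 fold change of -1.71 with a larger standard error of 0.45 (adjusted p = 0.275 from edgeR). The gene of opposite sign was Bhlhe40, at 71.8, 84.8 and 108 CPM with water and 46.7, 75.5 and 66.8 CPM with NMN at 2680 mg/kg/d. Its effects differed by 1.24 (standard error 0.26), with an unadjusted p of 0.000333 in edgeR and an adjusted p of 0.533. The 18 genes were picked for their once-daily difference, in libraries that also enter this test, which favours small p-values for them. An unadjusted p of the difference under 0.05 was found for 3 of the 18, against 738 of the 15989 genes tested, and none of the 3 passed after adjustment. The other two were Syt12 (-1.21 against -0.25 at 2680 mg/kg/d, unadjusted p = 0.0195 in edgeR) and Asns (1.37 against 0.48, unadjusted p = 0.0389 in edgeR).

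**Figure D5:**
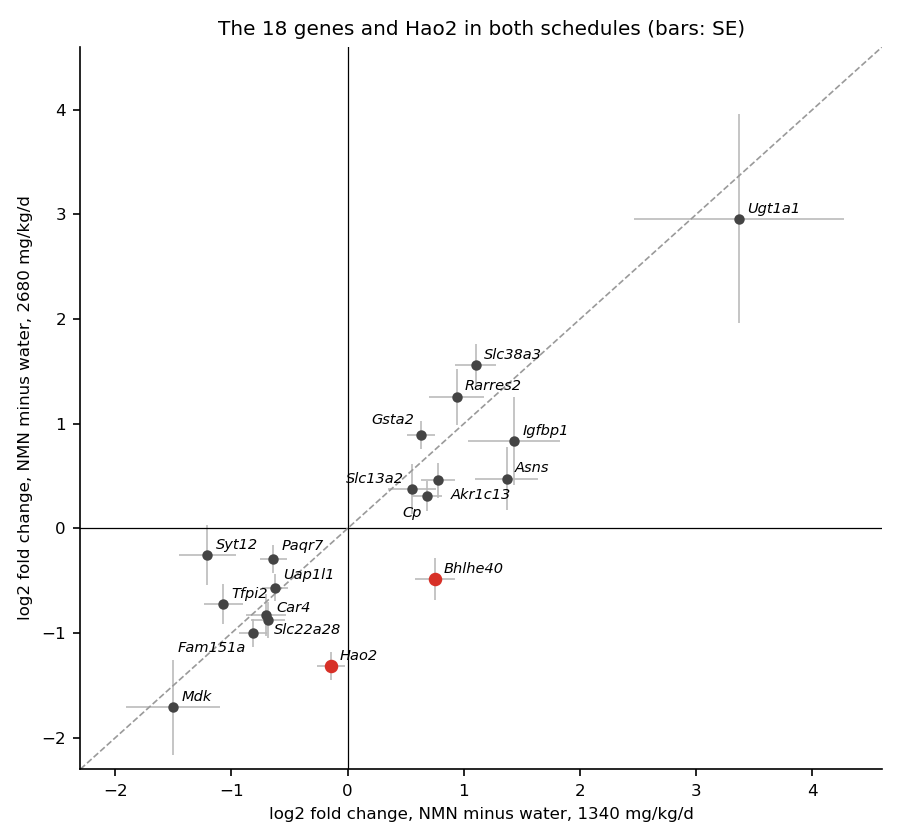
Log2 fold change (NMN minus water) at 1340 against 2680 mg/kg/d for the 18 genes and Hao2, from the fit of all 14 kidney libraries, with standard errors as bars and the line of equal effects dashed. Uap1l1, Slc22a28, Fam151a, Car4 and Mdk lie near the line (differences of -0.06 to 0.21), and Bhlhe40 (0.75 against -0.48) and Hao2, both in red, lie below it, as does Asns (1.37 against 0.48), while Syt12 (-1.21 against -0.25) lies above it.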

How the data were processed

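Counts per gene were deposited by the authors, who aligned poly(A) RNA-seq reads with STAR and counted them with HTSeq-count 0.11.0 in intersection-strict mode without strand, so that reads lying within the exons of overlapping or antisense genes are ambiguous and count for neither (2.17 to 2.50% of reads). The genome build is written mm19 in the article, and no gene coordinates are given from the counts. Of 54446 genes listed, 53229 matched GENCODE M21 with version and 1180 without. The 5 lines per file for unassigned reads were left out (no_feature 9.21 to 12.5%).

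Counts were filtered, scaled by TMM and tested with edgeR 4.0.16 (quasi-likelihood, robust, Benjamini-Hochberg, threshold 0.05), with DESeq2 1.42.0 as an alternative, in R 4.3.3. Levels are CPM with TMM factors, and TPM uses exon lengths. The standard error (SE) is the log2 fold change divided by the root of F. The exact permutation test used log2(CPM + 0.5). The steps were tested on simulated counts. The biological coefficient of variation was 16.2%, and 3 counts correspond to 0.191 to 0.228 CPM. Without molecular identifiers, this floor covers counting error only.

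Members, lists and tests were chosen with earlier results of these data known. Genes named are up to 15 per direction past the threshold, the 3 smallest p of each of 34 lists, 27 clock, NAD+ and injury genes, the most abundant gene of 17 marker lists and up to 5 per direction between schedules. Adipoq, Slc22a7 and Klk1 were named after their values were seen. Lists are described by counts and medians, without a test.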

Additional observations from a re-analysis of the deposited data

Results flagged for a closer look

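Single libraries far from the other 3 of their group were looked for in 244 groups of 4, of which 14 were found. Chance gives about 1 in 20 such groups.

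Water replicate 1 accounted for 6 of them. In CPM, it had Arntl at 31.5 (others up to 6.97), Npas2 at 16.1 (others up to 3.21), Clock at 78.0 (others up to 61.0), Tef at 175.8 (others from 331.8), Akr1c13 at 8.96 (others from 10.7) and Atf5 at 17.5 (others up to 14.5). Arntl, Npas2, Clock and Tef are clock genes.

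In NMN replicate 3, Nampt was low at 173.3 CPM (others from 208.7), Egf at 1473 CPM (others from 1634) and Cyp2a4 at 313.1 CPM (others from 402.9). In NMN replicate 1, Ciart was high at 22.6 CPM (others up to 12.98) and Havcr1 at 9.20 CPM (others up to 2.32). Water replicate 2 was apart in Parp12 at 18.6 CPM (others up to 12.9) and Parp10 at 24.3 CPM (others from 29.3). NMN replicate 2 was high in Clock at 74.9 CPM (others up to 64.2).

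The NMN effect on Hao2 differed between the schedules by 1.17 on the log2 scale in a direct test. At 2680 mg/kg/d the NMN libraries lay well below their water libraries, and once daily the groups overlapped.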

How the results depend on the processing

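The number of genes called between NMN and water (18) was 159 with DESeq2, 269 with no filter on low counts, 5 in edgeR without the robust option and 75 with replicate number added as a block, and it ran from 5 to 67 with each library left out (5 without water replicate 4, 67 without NMN replicate 3). It was 12 to 19 with other scaling, thinned counts, a minimum of 10 counts in every library, all 14 kidney libraries in a single fit (17 calls, 8 of them shared with the 18) or no mitochondrial genes. Of the calls 55.6% were higher with NMN, against 40% without the robust option and 41.3% with the block and 41.2% in the fit of all 14 libraries. The 18 genes kept their direction in all settings run. The cause of the differences in number was not tested.

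The number that differed between the schedules (1) was 10 with DESeq2, 106 with no filter, 0 without the robust option and 2 with the replicate block, and ran from 0 to 1 with each library left out.

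The replicate numbers were not used to pair the libraries. Deviations of same-numbered libraries correlated at 0.11, 0.14, -0.10 and -0.01, and 2 of 4 matched their own number best, while the second principal component set replicate 1 of both groups apart. Whether a number marks a shared cage or day is not given in the sources used here. The block kept 17 of the 18 calls, with Syt12 at an adjusted p of 0.0577 in edgeR. It also brought genes past the threshold that are described above as not passing in edgeR. Among these were Fkbp5 (adjusted p = 0.0039 in edgeR with the block), Pck1 and Slc5a2 (0.0043 each), Slc34a3 (0.0139), Acmsd (0.0178) and Slc12a1 (0.0432).

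Among the named genes, the sign turned with a library left out for Arntl (-0.96 to 0.29 on the log2 scale), Sirt1 (-0.19 to 0.031), Parp1 (-0.11 to 0.017), Per3 (-0.074 to 0.43), Clock (-0.016 to 0.16), Nmnat1 (-0.031 to 0.12), Cd38 (-0.20 to 0.11) and Cry1 (-0.38 to 0.17, and 0.013 with thinned counts), and for the markers Acta2 (-0.066 to 0.41), Slc26a4 (-0.0058 to 0.17), Cfd (-2.42 to 0.0021), Plvap (-0.0011 to 0.27), Star (-0.42 to 0.12) and Upk3a (-0.20 to 0.28). The median of 18 of the 51 lists changed sign with a library left out.

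Depth limits genes of few reads, such as Ugt1a1 and Slc12a8. With 4 samples a group and a median standard error of 0.15, small changes were not detectable, and 14 of the 18 calls were lost with at least 1 of the libraries left out.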

Other observations

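Further groups of kidney genes were described by their members. Among PPAR-alpha targets 11 of 21 were higher and 10 lower (median log2 fold change 0.03), with 6 higher and 3 lower at an unadjusted p under 0.05 (beside 4.34% and 4.6% of all genes tested), 3 not overlapping with NMN lower (beside 2.83%), and 2 called by DESeq2. Acot2, a mitochondrial thioesterase, was at 42.9 ± 4.29 CPM with water and 62.7 ± 12.8 CPM with NMN (SD, n = 4 each; adjusted p = 0.140 from edgeR). In gluconeogenesis and glycolysis 14 of 24 were higher (median 0.03), with 5 higher and 1 lower at an unadjusted p under 0.05, beside 4.34% and 4.6%. For 4 of these genes the groups did not overlap, all with NMN higher, beside 2.29%. None passed in edgeR, and DESeq2 called 1 higher. In lipogenesis and sterol synthesis 7 of 25 were higher (median -0.14, and -0.01 without water replicate 1). Of the cytochromes P450 16 of 25 were higher (median 0.09), and the abundant Cyp4b1 had a log2 fold change of -0.40 ± 0.11 (SE, adjusted p = 0.171 in edgeR). Ugt1a1 was the member of 21 genes of glucuronidation and sulfation past the threshold in edgeR, where 0.0668% of all genes tested passed with NMN higher. At an unadjusted p under 0.05 there were 4 higher and 2 lower, beside 4.34% and 4.6%, and DESeq2 called 2, both higher. Ugt1a10, which shares the 3′ exons of Ugt1a1, was at 3.45 ± 1.72 CPM with water and 8.53 ± 3.03 CPM with NMN (SD, n = 4 each; adjusted p = 0.263 from edgeR and 0.0244 from DESeq2).

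Nucleotide handling had 11 of 26 members higher and 15 lower (median -0.07). Slc29a3, a lysosomal nucleoside carrier, was at 120, 131, 130 and 109 CPM with water and at 102, 91.7, 79.5 and 81.1 CPM with NMN, without overlap (log2 fold change -0.47, standard error 0.10, adjusted p = 0.0881 from edgeR). Entpd1, which breaks down extracellular ATP, had a log2 fold change of 0.90 ± 0.22 (SE, adjusted p = 0.115 in edgeR), and Abcc4, an exporter of nucleotides and organic anions, of 0.68 (SE 0.17, adjusted p = 0.165 in edgeR). Osmolyte genes had a median of -0.04, p53 targets of 0.10, iron handling of 0.01, complement and acute phase of 0.02, extracellular matrix of 0.03 and the renin-angiotensin list of 0.08, where Ren1 was at 40.0 ± 8.69 CPM with water and 56.1 ± 16.1 CPM with NMN (SD, n = 4 each; adjusted p = 0.547 from edgeR).

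The remaining marker lists are given by their medians, with the range over fits with a library left out. The median was 0.02 for the S3 segment of the proximal tubule (-0.12 to 0.10), 0.16 for the thin limb (0.11 to 0.20), 0.08 for principal cells (0.035 to 0.19) and 0.05 for intercalated cells (-0.0058 to 0.093). It was 0.08 for fibroblasts and mural cells (-0.044 to 0.22), 0.20 for hepatocyte genes (0.12 to 0.28) and 0.29 for smooth muscle and urothelium (0.15 to 0.34). Star, the 1 adrenal marker with enough counts to be tested, was at a log2 fold change of -0.11 ± 0.30 (SE). Of the 7 S3 markers, 1 higher and 2 lower had an unadjusted p under 0.05, beside 4.34% and 4.6% of all genes tested. For 1 the groups did not overlap, with NMN lower (beside 2.83%). None passed in edgeR, and DESeq2 called 1 lower. Slc22a7 had the lowest log2 fold change of these markers (-1.18). It had 3918, 2967, 1548 and 3420 counts with water and 1285, 1082, 903 and 1403 with NMN.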
